A study of Homo sapiens with 12 samples.

Results

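KRT8, KRT18 and KRT15 are 3 of the 45320 genes in the count files and 3 of the 17020 genes that passed a filter on low counts. They were chosen by name as simple-epithelium keratins and a basal keratin that stood lower in ARID1A-depleted cells, so their difference between the knockdown and control arms is given below as a description without a test. All 3 passed the filter. RNA was sequenced from Ishikawa cells, a human endometrial adenocarcinoma line, that carried a hairpin against ARID1A (shARID1A, written shARD in the sample titles) or a control hairpin (shNC). The ARID1A protein binds DNA and belongs to SWI/SNF, a complex that remodels chromatin. Both arms were held for at least 4 days in phenol red-free medium with charcoal-stripped serum, and both received the same treatments for 8 h: DMSO vehicle, 17-beta-estradiol (E2) at 10 nM, or that dose of E2 combined with fulvestrant at 100 nM, an estrogen receptor antagonist and degrader. This gave 6 groups of 2 libraries, 6 libraries per arm.

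Keratins are the intermediate filament proteins of epithelial cells. A type I (acidic) keratin pairs with a type II (basic) keratin, and the pairs polymerise into filaments that are anchored at desmosomes and hemidesmosomes. KRT8 (type II) and KRT18 (type I) are the primary pair of simple, single-layered epithelia, including the glands of the endometrium, and each protein is unstable without a partner of the other type. KRT15 is a type I keratin of the basal layer of stratified epithelia and of hair follicle progenitor cells.

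In hg19, the build of the count files, KRT8 lies on the minus strand at chr12:53290992-53343738 and KRT18 on the plus strand at chr12:53342670-53346656. These 2 gene models run in opposite directions and overlap at their ends. Of the 4678 exonic bases of KRT8, 520 (11.1%) are also exonic bases of KRT18, where they make up 17.3% of 3011 bases. Another 153 exonic bases of KRT18 are shared with AC107016.1, a gene model on the opposite strand. No strand setting is recorded for the counting, so reads in these stretches cannot be assigned to one gene from the counts. KRT15 lies on the minus strand of the type I keratin cluster at chr17:39669997-39678781, and none of its 5969 exonic bases is shared with another gene.

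KRT15 had no pseudogene in the files, and a stretch of 75 coding bases, numbered from the A of the start codon, shows how far it stands from a close relative. The stretch is KRT15 coding bases 530 to 604 beside KRT17, another type I keratin of the same cluster on chromosome 17. It is the first one with the median number of differences, 17, and capitals mark the bases at which the sequences differ. Both come from GENCODE v29 transcripts (GRCh38) and are given 5′ to 3′ in the sense of the transcript.
KRT15: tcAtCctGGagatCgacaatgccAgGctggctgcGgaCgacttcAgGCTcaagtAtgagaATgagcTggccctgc
KRT17: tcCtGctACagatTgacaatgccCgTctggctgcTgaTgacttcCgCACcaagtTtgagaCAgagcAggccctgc

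KRT8 and KRT18 also have many pseudogene copies, which bear on how their reads can be assigned. Over the coding sequence, KRT8 matched its pseudogene KRT8P33 on chromosome 5 at 95.8% of 1420 aligned bases and KRT18 matched its pseudogene KRT18P17 on chromosome 3 at 93.8% of 1278. KRT15 matched KRT17 at 78.3% of 999 aligned bases. Of the 1400 windows of 50 bases in the KRT8 coding sequence, 677 (48.4%) occurred unchanged in transcripts of another gene. For KRT18 the count was 720 of 1241 windows (58.0%), of which 326 matched antisense to KRT8. For KRT15 it was 17 of 1319 windows (1.29%), all in KRT13. Identical windows were thus common for KRT8 and KRT18 and rare for KRT15.

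Libraries held 28810351 to 38657162 counts. ARID1A itself was measured at 57.4 ± 2.63 CPM in shARID1A libraries and 117.6 ± 5.04 CPM in shNC libraries (CPM, read counts scaled to a common library total with TMM factors, SD, n = 6 each), and the arms did not overlap. Of 12 epithelial markers in the files, 6 stayed under 1 CPM in every library (CDH1, CDH3, KRT19, CLDN4, ESRP1 and GRHL2). EPCAM averaged 0.747 CPM in shARID1A and 1.52 CPM in shNC libraries. The line is labelled as endometrial cancer cells, and these defining epithelial markers were at or near 0 in both arms, while KRT7, KRT8 and KRT18 were abundant. CLDN7 and ELF3 of the same list were also expressed. CLDN7 averaged 50.5 CPM in shARID1A and 47.1 CPM in shNC libraries, and ELF3 40.5 CPM in shARID1A and 51.5 CPM in shNC libraries. The summed level of the epithelial list was 1078 to 1229 CPM in shARID1A and 1360 to 1491 CPM in shNC libraries, and without its keratins 85.8 to 98.0 CPM in shARID1A and 93.6 to 112.9 CPM in shNC libraries. Of 8 stromal fibroblast markers, 5 were under 1 CPM everywhere, and their sum was 50.1 to 53.3 CPM in shARID1A and 32.2 to 44.0 CPM in shNC libraries, mostly COL1A1. Of the 3 stromal markers tested, COL1A1 was called higher (47.1 CPM in shARID1A and 31.1 CPM in shNC libraries), and DCN (0.175 CPM in shARID1A and 1.17 CPM in shNC) and PDGFRB (4.32 CPM in shARID1A and 6.32 CPM in shNC) were called lower. Of 6 immune markers, 5 were under 1 CPM everywhere, and the sums were 2.13 to 3.70 CPM in shARID1A and 1.36 to 1.99 CPM in shNC libraries. Of 9 basal and squamous epithelial markers in the files, 4 were under 1 CPM everywhere (KRT5, KRT6A, KRT14 and TP63), and the sums were 347 to 449 CPM in shARID1A and 311 to 372 CPM in shNC libraries, mostly KRT17. Without keratins these sums were 24.7 to 33.0 CPM in shARID1A and 48.1 to 55.4 CPM in shNC libraries. All 3 endothelial markers in the files were under 1 CPM. Of 6 Müllerian markers in the files, PAX2 and EMX2 were under 1 CPM everywhere, and the sums were 54.8 to 61.5 CPM in shARID1A and 65.6 to 73.0 CPM in shNC libraries. The part of these lists in the keratin differences was not tested.

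KRT8 was the most abundant of the 3 transcripts by count and was lower in every shARID1A library. In shARID1A cells it was measured at 346 and 352 CPM under DMSO, 343 and 367 CPM under E2, and 355 and 343 CPM under E2 with fulvestrant. In shNC cells it was measured at 608 and 567 CPM under DMSO, 607 and 563 CPM under E2, and 619 and 571 CPM under E2 with fulvestrant. The highest shARID1A library was thus well below the lowest shNC library, and replicates within a group lay close together. KRT8, KRT18 and KRT15 were chosen on this contrast, and the share of all genes whose arms separate in this way was not computed. Among all genes tested, 22.8% were called lower and 20.3% higher in shARID1A cells in the mean over treatments, and the median log2 fold change was -0.02.

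The arm means of KRT8 were 351 ± 9.33 CPM in shARID1A and 589 ± 24.7 CPM in shNC libraries (SD, n = 6 each). The fitted log2 fold change, averaged over the 3 treatments, was -0.75 (SE 0.03, 95% interval -0.81 to -0.68), which left 59.6% of the control level. By treatment it was -0.75 under DMSO, -0.72 under E2 and -0.77 under E2 with fulvestrant. A log2 fold change below that of KRT8 was found for 1169 genes (6.87%). By mean level per exon length in shNC libraries (RPKM), KRT8 ranked 491 among the 17020 genes, KRT18 626 and KRT15 14917. In these bulk samples, fewer cells of a type and less RNA per cell cannot be told apart.

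KRT18, the type I partner of KRT8, was also lower in every shARID1A library. In shARID1A cells it was measured at 205 and 209.5 CPM under DMSO, 216 and 206 CPM under E2, and 206 and 193 CPM under E2 with fulvestrant. In shNC cells it was measured at 320.3 and 286 CPM under DMSO, 318 and 308 CPM under E2, and 290.4 and 280 CPM under E2 with fulvestrant. The arms did not overlap, and the lowest shNC value was under E2 with fulvestrant. The arm means were 206 ± 7.49 CPM in shARID1A and 300.5 ± 17.4 CPM in shNC libraries (SD, n = 6 each). The averaged log2 fold change was -0.54 (SE 0.03, 95% interval -0.61 to -0.47), or 68.6% of the control level. It was -0.55 under DMSO, -0.57 under E2 and -0.51 under E2 with fulvestrant. A lower log2 fold change was found for 1866 of the genes tested (11.0%).

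KRT15 was a rare transcript in both arms and had the largest difference of the 3 in relative terms. Its counts in shARID1A cells were 0 and 9 under DMSO, 13 and 27 under E2, and 2 and 14 under E2 with fulvestrant. In shNC cells they were 76 and 43 under DMSO, 90 and 47 under E2, and 72 and 55 under E2 with fulvestrant. All shARID1A libraries were below all shNC libraries, and 2 shARID1A libraries were at or under 3 counts. KRT15 was chosen on this contrast, and its separation was not compared with that of all genes. A count of 3, taken as the floor of detection for a single library, was 0.0776 to 0.104 CPM, which covers counting error only.

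The mean level of KRT15 was 0.332 ± 0.27 CPM in shARID1A and 2.0 ± 0.58 CPM in shNC libraries (SD, n = 6 each). The averaged log2 fold change was -2.77 (SE 0.35, 95% interval -3.48 to -2.07). It was -3.63 (SE 0.70) under DMSO, -1.82 (SE 0.47) under E2 and -2.87 (SE 0.61) under E2 with fulvestrant. Without the second shARID1A DMSO library, which leaves 1 library with 0 counts in that group, the averaged value was -4.53. By treatment, leaving out single libraries gave -8.92 to -2.63 under DMSO, -2.31 to -1.21 under E2 and -4.80 to -2.08 under E2 with fulvestrant. The ratio of the arm means alone gave -2.59. A log2 fold change below that of KRT15 was found for 61 genes tested (0.358%). KRT15 was chosen on this comparison, in which rare transcripts also have the widest intervals.

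**Figure D1:**
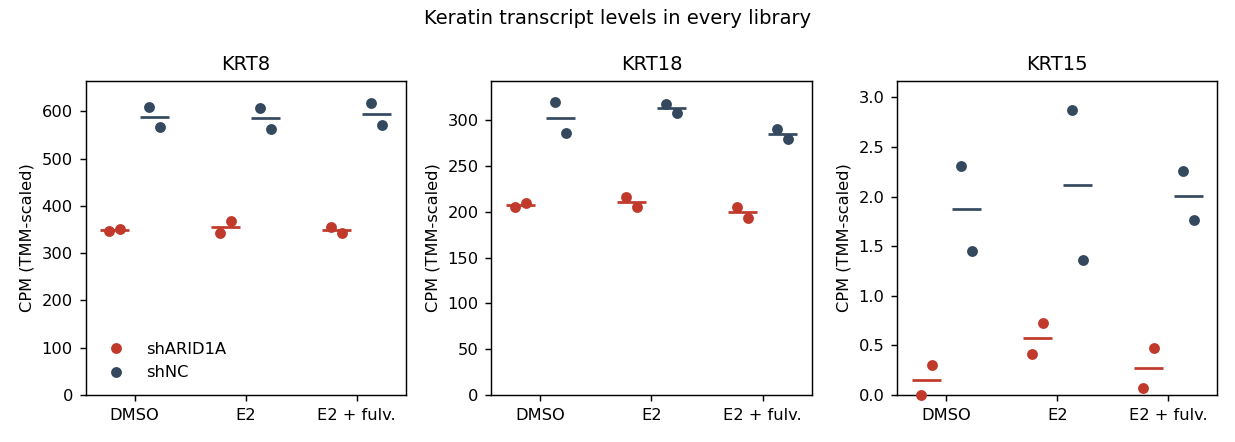
Levels of KRT8, KRT18 and KRT15 in CPM (TMM-scaled, vertical axes from 0) in each of the 12 libraries by treatment. Points are libraries, lines are group means of 2 libraries, red is shARID1A and dark blue shNC. In each panel all 6 shARID1A points lie below all 6 shNC points, and the treatments within an arm overlap or lie close together. The genes were chosen on the contrast between arms.

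Ordered by mean level, the 6 groups split by arm for each gene. KRT8 was highest in shNC cells under E2 with fulvestrant (595 CPM), then DMSO (587) and E2 (585), followed by shARID1A cells under E2 (355), DMSO (349.2) and E2 with fulvestrant (349). KRT18 ran from shNC cells under E2 (313 CPM), DMSO (303) and E2 with fulvestrant (285) to shARID1A cells under E2 (211), DMSO (208) and E2 with fulvestrant (199.6). KRT15 ran from shNC cells under E2 (2.12 CPM), E2 with fulvestrant (2.01) and DMSO (1.88) to shARID1A cells under E2 (0.573), E2 with fulvestrant (0.271) and DMSO (0.152). For all 3 genes, neighbours in these orders overlapped in their library values except at the single step between the arms.

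Estradiol and fulvestrant were tested next, a contrast that did not choose the genes. The question was whether 8 h of E2, or of E2 with fulvestrant, changed keratin transcripts in either arm, and whether the change differed between arms. None of 36 tests (3 genes in 12 contrasts) passed an adjusted p of 0.05 (edgeR quasi-likelihood test, Benjamini-Hochberg adjustment over 17020 genes). Across all genes very few were called: 0.00588% for E2 against DMSO averaged over arms, 0.0646% for E2 with fulvestrant against E2, and 0% for E2 with fulvestrant against DMSO. The 11 genes called for E2 with fulvestrant against E2 became 0 without the second shNC library under E2 with fulvestrant or without the second shARID1A E2 library, and 222 without the second shNC E2 library. Unadjusted p was under 0.05 for 4 of the 36 keratin tests, and for 696, 2489 and 1422 genes in those 3 contrasts.

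For KRT8 the intervals were narrow. Its treatment effects and arm differences lay between -0.05 and 0.03 on the log2 scale, and none of their 95% intervals reached beyond -0.21 or 0.19. In shARID1A cells E2 against DMSO gave 0.02 (95% interval -0.09 to 0.14), and in shNC cells -0.01 (-0.12 to 0.11). E2 with fulvestrant against E2 gave -0.03 (-0.14 to 0.09) in shARID1A and 0.02 (-0.09 to 0.13) in shNC cells.

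For KRT18 all values lay between -0.14 and 0.06, with intervals within -0.25 to 0.23. E2 with fulvestrant against E2 averaged over arms had the smallest adjusted p of the family. It was -0.11 (SE 0.04, 95% interval -0.19 to -0.02, adjusted p = 0.225, edgeR), and the unadjusted p was 0.015. The value was -0.08 in shARID1A cells and -0.14 in shNC cells, and the difference between arms was 0.06 (95% interval -0.11 to 0.23). Group means were lower under E2 with fulvestrant than under E2 in both arms, but the change did not pass the correction.

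For KRT15 the low counts left wide intervals. In shARID1A cells E2 against DMSO gave 1.94 on the log2 scale (SE 0.93, 95% interval 0.04 to 3.83, adjusted p = 0.748, edgeR), from 13 and 27 counts under E2 against 0 and 9 under DMSO, in a contrast where 0.0235% of all genes were called. In shNC cells it was 0.13 (SE 0.36, 95% interval -0.61 to 0.88, adjusted p = 0.9997, edgeR). The difference between arms was 1.80 (95% interval -0.26 to 3.87, adjusted p = 0.826, edgeR, and 0.81 to 7.09 without single libraries), in a contrast where 0.0294% of all genes were called. The arm difference for E2 with fulvestrant against E2 was -1.04 (95% interval -2.85 to 0.77, and -2.97 to -0.26 without single libraries), where 0.0118% of genes were called. That effect was -1.09 (95% interval -2.74 to 0.55) in shARID1A and -0.05 (-0.78 to 0.68) in shNC cells. E2 with fulvestrant against DMSO gave 0.84 in shARID1A and 0.08 in shNC cells, where 0% and 0.0118% of genes were called.

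**Figure D2:**
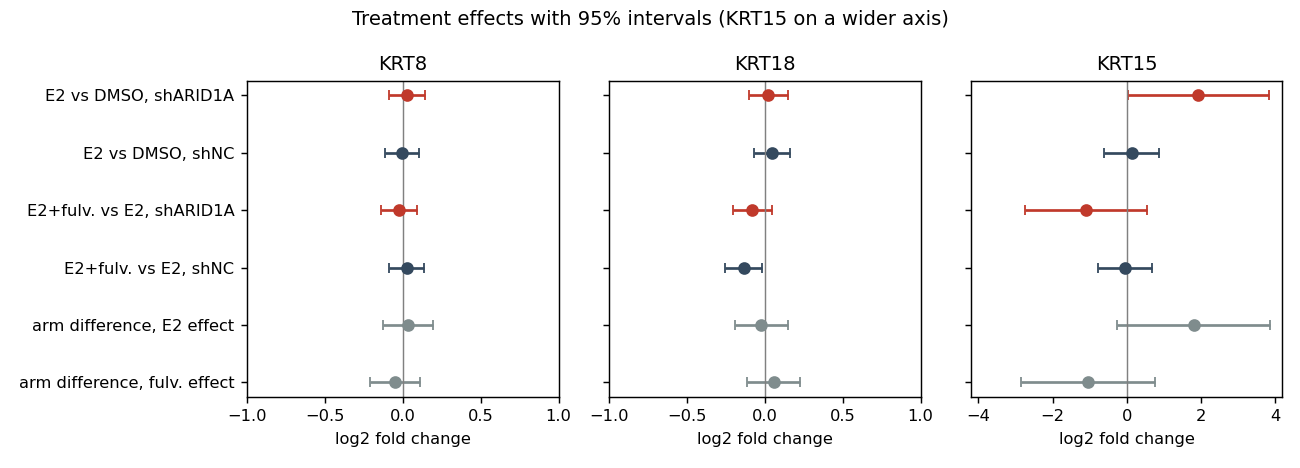
Log2 fold changes of KRT8, KRT18 and KRT15 for E2 against DMSO and E2 with fulvestrant against E2 in each arm, and the difference of each effect between arms (shARID1A minus shNC). Points are estimates from the fit over 12 libraries and bars are 95% intervals. The KRT8 and KRT18 intervals stay within -0.25 and 0.23, and the KRT15 axis is about 4 times wider.

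The rest of the keratin family was then set beside the 3 genes. Of the 33 keratin genes in the files, 16 were type I and 17 type II, and 8 passed the filter. The 25 that did not pass had at most 6 counts in any library, and 11 of them had 0 in all. Among the 5 others that passed, 2 rose and 2 fell in shARID1A cells (edgeR, adjusted p under 0.05, mean of treatments), against 20.3% and 22.8% of all genes. KRT17 and KRT7 thus moved opposite to KRT8 and KRT18.

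KRT17, a type I keratin of basal and activated epithelia, rose by 0.42 on the log2 scale (SE 0.04, adjusted p = 2.19e-11, edgeR). It averaged 369 ± 31.1 CPM in shARID1A and 276 ± 19.4 CPM in shNC libraries. Of its 2526 exonic bases, 1015 (40.2%) are shared on the same strand with JUP, which also rose. How far reads in the shared bases entered either count was not tested. KRT7, the other main type II keratin of simple and glandular epithelia, rose by 0.23 (SE 0.03, adjusted p = 1.12e-07, edgeR), with 507 ± 35.8 CPM in shARID1A and 431 ± 23.7 CPM in shNC libraries.

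KRT16, the stress-induced type I keratin of stratified epithelia, fell by 1.07 on the log2 scale (SE 0.10, adjusted p = 7.16e-11, edgeR). It averaged 4.86 ± 0.59 CPM in shARID1A and 10.2 ± 0.59 CPM in shNC libraries. KRT80, a type II epithelial keratin, fell by a small amount, -0.12 (SE 0.03, adjusted p = 0.00496, edgeR), with 262 ± 15.7 CPM in shARID1A and 284 ± 14.9 CPM in shNC libraries. Its call was not made in any single treatment. KRT9, a keratin of palm and sole skin, was at 0.391 CPM in shARID1A and 0.317 CPM in shNC libraries, and its log2 fold change was 0.33 (SE 0.43, adjusted p = 0.573, edgeR). Within single treatments KRT17 and KRT7 were called higher and KRT16 lower each time, where 9.7% of genes were called higher and 9.5% lower under DMSO, 13.4% and 13.8% under E2, and 11.4% and 12.8% under E2 with fulvestrant.

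Of the 8 keratins that passed the filter, KRT7 alone was called in any of the 12 treatment contrasts. E2 with fulvestrant against E2, averaged over arms, gave -0.18 (SE 0.04, adjusted p = 0.0427, edgeR), 1 of 11 genes called. With RLE size factors in place of TMM its adjusted p was 0.0505. The call was also lost without the first shNC E2 library (adjusted p = 0.263, edgeR), either shNC library under E2 with fulvestrant (0.0942 and 0.133), either shARID1A DMSO library (0.104 and 0.0961), the second shARID1A E2 library (0.464) or the second shARID1A library under E2 with fulvestrant (0.362). The same contrast gave -0.18 for KRT17 (adjusted p = 0.0907, edgeR) and -0.14 for KRT80 (adjusted p = 0.131, edgeR), beside -0.11 for KRT18 and -0.0016 for KRT8.

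**Figure D3:**
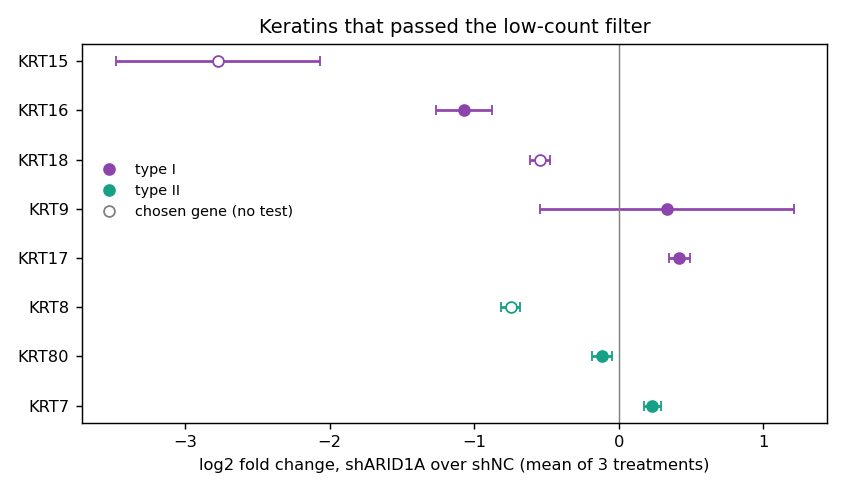
Log2 fold change of the 8 keratins that passed the filter, shARID1A over shNC, mean of 3 treatments. Points are estimates and bars are 95% intervals, purple for type I and green for type II, with open circles for KRT15, KRT18 and KRT8, which were chosen on this contrast. KRT17 and KRT7 lie right of 0 at 0.42 and 0.23, and KRT16 lies left at -1.07.

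Because keratins pair across types, their levels were also compared per length, as RPKM over each gene's exon length. These lengths include bases shared with other genes, 11.1% of KRT8, 22.4% of KRT18 and 40.2% of KRT17. The effect of the shared bases on ratios between genes was not tested. On this scale KRT8 averaged 75 in shARID1A and 126 in shNC libraries, and KRT18 averaged 68.4 in shARID1A and 99.8 in shNC libraries. The KRT8 to KRT18 ratio of RPKM was 1.10 ± 0.05 in shARID1A and 1.26 ± 0.07 in shNC libraries (SD, n = 6 each). The ranges of 1.02 to 1.15 in shARID1A and 1.18 to 1.37 in shNC libraries did not overlap, so KRT8 was lower in shARID1A cells by more than its partner was. KRT15 was at 0.0556 RPKM in shARID1A and 0.335 in shNC libraries, or 0.0254% of the type I total in shARID1A and 0.155% in shNC libraries.

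The composition of both keratin types differed between arms. KRT8 was 26.3% of the type II RPKM in shARID1A and 39.02% in shNC libraries, while KRT7 was 46.6% in shARID1A and 35.0% in shNC libraries. KRT18 was 31.5% of the type I RPKM in shARID1A and 46.5% in shNC libraries, while KRT17 was 67.2% in shARID1A and 50.9% in shNC libraries. KRT7 was thus the leading type II transcript in shARID1A cells and KRT8 in shNC cells, and KRT17 led type I in both arms.

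The type I total was 217 ± 14.4 RPKM in shARID1A and 215 ± 12.5 RPKM in shNC libraries, with overlapping ranges. The type II total was 285 ± 15.3 RPKM in shARID1A and 323 ± 11.5 RPKM in shNC libraries, and the ranges of 263 to 309 in shARID1A and 311 to 338 in shNC libraries did not overlap. The type I to type II ratio was 0.762 (0.733 to 0.779) in shARID1A and 0.665 (0.625 to 0.695) in shNC libraries. These sums hold the chosen genes and are given without a test. The exon length of KRT17 includes the bases it has in common with JUP. The KRT17 share, the totals and the type I to type II ratio thus depend on how reads there were counted, which was not tested.

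**Figure D4:**
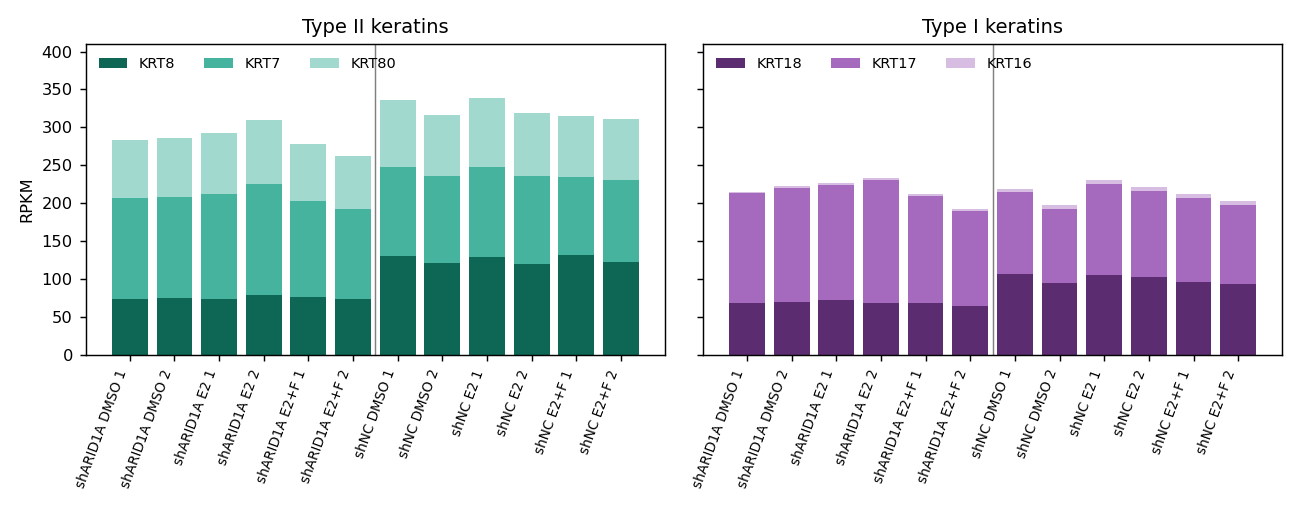
Type II keratins (left) and type I keratins (right) in each library as stacked bars of RPKM from 0, shARID1A libraries on the left of each panel and shNC libraries on the right. The KRT8 and KRT18 segments are shorter in every shARID1A library. The type I stacks overlap between arms (means 217 RPKM in shARID1A and 215 in shNC), and the type II stacks are lower in shARID1A (mean 285 RPKM, against 323 in shNC). KRT15, KRT9 and keratins under the filter are too low to be seen and are not drawn.

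Reads on pseudogene copies were examined because the copies hold stretches identical to the parent transcript. The files hold 50 KRT8 pseudogenes, of which 42 had a count and 13 passed the filter, and 67 KRT18 pseudogenes, of which 55 had a count and 13 passed. The median log2 fold change of the copies that passed was -0.68 for KRT8 and -0.45 for KRT18. Not all KRT8 copies were lower in shARID1A cells, with 0.33 for KRT8P12, 0.12 for KRT8P42, 0.57 for KRT8P39 and 1.27 for KRT8P26. As the copies share sequence with genes chosen on this contrast, these values are a description without a test, and the transcript of origin of their reads was not tested.

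The summed level of the KRT8 copies was 109 ± 3.67 CPM in shARID1A and 186 ± 8.48 CPM in shNC libraries. It amounted to 31.0% ± 0.68 of the KRT8 count in shARID1A and 31.6% ± 0.67 in shNC libraries (SD, n = 6 each). The KRT18 copies summed to 18.3 ± 0.47 CPM in shARID1A and 25.8 ± 1.57 CPM in shNC libraries, or 8.87% of the KRT18 count in shARID1A and 8.59% in shNC libraries. The ranges of these shares overlapped between arms. With the pseudogene counts added to the parent, the averaged log2 fold changes were -0.75 for KRT8 and -0.54 for KRT18.

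KRT8P3 held most of the KRT8 copies' counts and is named after its values were seen. It had 77.5 to 83.5 CPM in shARID1A and 137 to 153 CPM in shNC libraries, which was 22.7% ± 0.50 of the KRT8 count in shARID1A and 24.6% ± 0.58 in shNC libraries, with ranges that did not overlap. Its transcript matched the KRT8 coding sequence at 97.1% of 1449 bases, with 42 differences, and 395 of the 1400 windows of 50 bases (28.2%) were identical in both. KRT8P33 and KRT18P17 had log2 fold changes of -0.67 and -0.45.

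**Figure D5:**
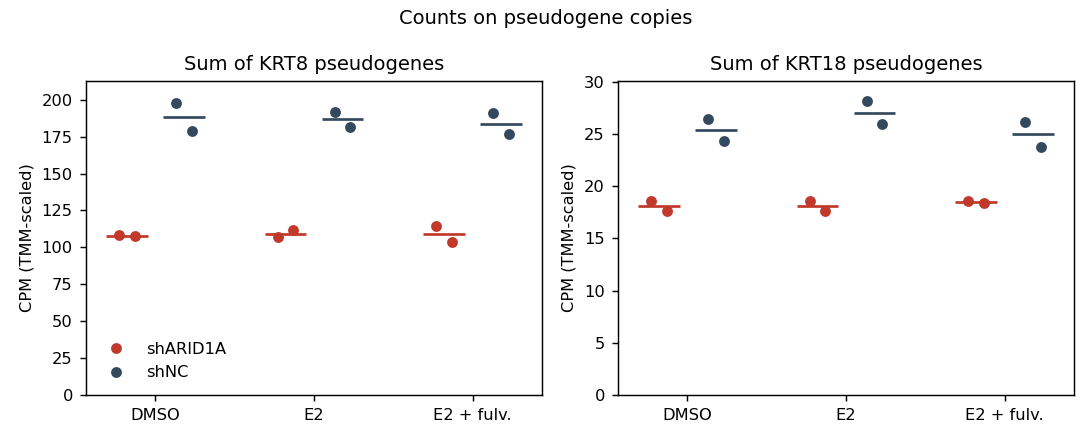
Summed CPM of the KRT8 pseudogenes (left) and KRT18 pseudogenes (right) in each library by treatment, vertical axes from 0. Points are libraries, lines are group means, red is shARID1A and dark blue shNC. The KRT8 sums are 104 to 114 CPM in shARID1A and 177 to 198 CPM in shNC libraries, in the same arm order as KRT8 itself.

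In a list of keratin linker, desmosome and other keratin-related genes, more were lower than higher. Of 22 genes tested in this list, 11 fell and 5 rose in shARID1A cells, against 22.8% of all genes lower and 20.3% higher. The median log2 fold change was -0.15, against -0.02 over all genes. Not all of the list encodes proteins that anchor or join filaments. CSNK1A1 and YWHAZ were among those that fell (-0.15 and -0.17), and TRIM29 was among those that rose (0.19). DST, which encodes the hemidesmosome linker BPAG1, fell with a log2 fold change of -1.16 (29.1 ± 2.10 CPM in shARID1A and 65.3 ± 6.79 CPM in shNC libraries, adjusted p = 1.72e-17, edgeR). ITGB4 and ITGA6, which encode the chains of the hemidesmosome integrin, fell by 1.09 and 0.50 on the log2 scale. ITGB4 averaged 17.5 ± 3.15 CPM in shARID1A and 37.4 ± 2.46 CPM in shNC libraries, and ITGA6 49.4 ± 2.60 CPM in shARID1A and 69.9 ± 3.66 CPM in shNC libraries (adjusted p = 4.72e-14 and 1.11e-10, edgeR). PPL, the plakin periplakin, fell to 0.549 ± 0.29 CPM in shARID1A libraries, against 2.74 ± 0.30 CPM in shNC libraries (log2 fold change -2.35, adjusted p = 1.01e-09, edgeR). PLEC and COL17A1 of the same list were not called. PLEC averaged 249 CPM in shARID1A and 240 CPM in shNC libraries (log2 fold change 0.05, adjusted p = 0.341, edgeR). COL17A1 was rare, at 0.338 CPM in shARID1A and 0.375 CPM in shNC libraries.

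Of the 7 desmosomal genes tested in this list, 2 rose, 2 fell and 3 were not called. JUP, which encodes plakoglobin, rose with a log2 fold change of 0.75 (454 ± 17.7 CPM in shARID1A and 271 ± 20.02 CPM in shNC libraries, adjusted p = 5.73e-17, edgeR), and 30.7% of its exonic bases are those shared with KRT17. PKP3, a plakophilin of desmosomal plaques, rose by 0.52 (112 ± 4.40 CPM in shARID1A and 78.3 ± 5.29 CPM in shNC libraries, adjusted p = 5.18e-12, edgeR). DSP, which encodes desmoplakin, fell by 0.20 on the log2 scale (20.2 CPM in shARID1A and 23.2 CPM in shNC libraries, adjusted p = 0.0144, edgeR). The DSP call was lost without the second shARID1A DMSO library (0.0808), the second shARID1A E2 library (0.0610) or the first shARID1A library under E2 with fulvestrant (0.0647). PKP2, another plakophilin, fell by 0.27 on the log2 scale (6.45 CPM in shARID1A and 7.77 CPM in shNC libraries, adjusted p = 0.0445, edgeR). The PKP2 call was lost with RLE factors (0.0506), no filter (0.0519) or DESeq2 (0.0751). It was also lost, with adjusted p between 0.0625 and 0.224, without either shARID1A DMSO library, the second shARID1A E2 library, the first shARID1A library under E2 with fulvestrant, the second shNC DMSO or E2 library, or either shNC library under E2 with fulvestrant. The cadherin genes DSG2 and DSC3 and the plakophilin gene PKP4 were not called (log2 fold changes -0.03, -0.08 and -0.02).

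Other intermediate filament genes moved in both directions. Of 9 tested, 4 fell and 2 rose, where 22.8% of all genes were lower and 20.3% higher (median -0.15). SYNM, which encodes the filament-linking protein synemin, fell by 0.61 on the log2 scale (95.2 ± 5.01 CPM in shARID1A and 145 ± 4.52 CPM in shNC libraries, adjusted p = 3.55e-15, edgeR). VIM, the mesenchymal filament protein vimentin, fell by 0.15 on the log2 scale (521 ± 2.95 CPM in shARID1A and 578 ± 18.1 CPM in shNC libraries, adjusted p = 3.19e-05, edgeR). LMNA and LMNB2, which encode nuclear lamins, rose by 0.31 and 0.23. LMNB1, another lamin gene, and IFFO2 fell by 0.11 and 0.57 on the log2 scale (adjusted p = 0.00613 and 0.0227, edgeR). The LMNB1 call was lost without the second shARID1A DMSO library (adjusted p = 0.0548, edgeR). The IFFO2 call was lost without the first shNC DMSO library (0.0734), the second shNC E2 library (0.0830), the second shNC library under E2 with fulvestrant (0.164), the second shARID1A DMSO library (0.0669) or the first shARID1A E2 library (0.0577).

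Transcription and splicing regulators of epithelial identity moved in both directions. Of 19 tested, 9 fell and 4 rose (median -0.18). The share of rises was near the 20.3% of all genes called higher, beside 22.8% called lower. The number that fell was 8 with RLE factors or no filter and 7 with DESeq2. KLF4, a factor of epithelial differentiation, rose by 0.76 (220 ± 5.60 CPM in shARID1A and 129.9 ± 3.96 CPM in shNC libraries, adjusted p = 4.35e-18, edgeR). TFAP2A, the epithelial factor AP-2 alpha, rose by 0.64 (192 ± 4.18 CPM in shARID1A and 123 ± 6.93 CPM in shNC libraries, adjusted p = 2.50e-15, edgeR). ESRP2, an epithelial splicing regulator, rose by 0.43 (adjusted p = 6.40e-10, edgeR).

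Among those that fell, RUNX1 averaged 20.5 ± 0.83 CPM in shARID1A and 37.2 ± 3.65 CPM in shNC libraries (log2 fold change -0.85, adjusted p = 2.93e-13, edgeR). ZEB1, a repressor of epithelial genes, fell by 0.67 on the log2 scale (19.7 ± 1.67 CPM in shARID1A and 31.5 ± 3.57 CPM in shNC libraries, adjusted p = 2.58e-10, edgeR). ELF3, an epithelial ETS factor, fell by 0.35 on the log2 scale (40.5 ± 2.47 CPM in shARID1A and 51.5 ± 4.66 CPM in shNC libraries, adjusted p = 2.68e-06, edgeR). TP63, the master factor of basal epithelium, was called lower but was at 0.142 ± 0.20 CPM in shARID1A and 0.289 ± 0.23 CPM in shNC libraries, with overlapping values.

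Few chromosomal neighbours of the 3 genes could be tested, and 22.8% of all genes were called lower and 20.3% higher. Within 250 kb of KRT8 and KRT18 the files list 33 other genes, of which 11 were tested, with 1 higher and 3 lower (median log2 fold change -0.06). SPRYD3 rose by 0.48, and TENC1, IGFBP6 and EIF4B fell by 0.76, 0.45 and 0.10 on the log2 scale. The EIF4B call was lost without the first shARID1A DMSO library (adjusted p = 0.0584, edgeR) or the second shARID1A library under E2 with fulvestrant (0.0645). Within 250 kb of KRT15 the files list 22 others, of which 6 were tested, with JUP and KRT17 higher and KRT16 lower (median 0.32). KRT16 and KRT17 thus changed in opposite directions at distances of 87.9 and 96.9 kb from KRT15.

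The levels of the 3 keratins correlated across the 12 libraries, and less so within the arms. As a description without a test, Pearson's r of log2 CPM was 0.98 for KRT8 with KRT18, 0.87 for KRT8 with KRT15 and 0.84 for KRT18 with KRT15. After the arm means were removed it was 0.33, 0.37 and 0.11 for the same pairs. The libraries share arm, treatment and depth, and KRT8 and KRT18 share exonic bases. The 3 genes were also chosen because they stood lower in shARID1A cells, so high r across both arms follows from that choice.

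Among 13254 tested genes whose mean reached 1 CPM, likeness was measured as the root mean square difference of centred log2 CPM over 12 libraries. The nearest genes to KRT8 were S100A16 (0.0381), CDA, CD44, TTYH3 and LRIG1. S100A16 averaged 136 CPM in shARID1A and 230.3 CPM in shNC libraries. The nearest to KRT18 were PREX1 (0.0410), HYOU1, KIF26A, ARHGEF2 and GSTM1. The nearest to KRT15 were C3 (0.662), PLEK2, VAV1, a gene listed by its Ensembl identifier and SPINK1 (0.712), a much looser match. With Pearson's r as the measure, 1 of 5 genes was shared for KRT8, 1 of 5 for KRT18 and none of 5 for KRT15, so these lists depend on the measure of likeness.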

How the data were processed

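RNA was extracted with TRIZOL and libraries were made with a TruSeq mRNA kit, per the labels' protocols. The deposited values are whole-number read counts per gene, without normalization by the authors. The submitters' processing notes name Trim Galore, cutadapt, FastQC, Subread 2.0.0 and the build hg19. Per the file headers, featureCounts 2.0.0 summed reads over each gene's exons and carried no option for strand or multiple alignments. The fulvestrant dose is typed with letters for zeros and was read as 100 nM. The labels do not say whether libraries of a group are separate cultures, nor how many hairpins or lines stand behind an arm. Any p-value thus reflects library-to-library spread, possibly technical, and ARID1A loss cannot be told apart from other differences between the lines.

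In R 4.3.3 with edgeR 4.0.16, filterByExpr by group kept 17020 genes, libraries were scaled by TMM, and 1 model of 6 group means covered all 12 libraries. Contrasts used the quasi-likelihood F-test (glmQLFit, glmQLFTest) with Benjamini-Hochberg adjustment over all genes, and genes were called at an adjusted p under 0.05. SE and 95% intervals come from this fit, which was checked on simulated data. RPKM was computed here from TMM-scaled CPM and the exon lengths in the files. No replicate block was used in this fit.

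The members and gene lists were chosen with earlier results of these data known. Named genes are the members, other keratins past the filter, up to 6 genes per list with the smallest adjusted p, called neighbours within 250 kb and the 5 nearest patterns per member. KRT8P3, KRT8P33, KRT18P17, TP63, DSP, PKP2, PKP4, DSG2, DSC3, COL1A1, DCN and PDGFRB were named after their values were seen. The same holds for KRT8P12, KRT8P26, KRT8P39, KRT8P42, PLEC, COL17A1, CSNK1A1, YWHAZ and TRIM29. Alternatives were RLE factors, no filter, DESeq2 1.42.0, a replicate block, pseudogene counts added to the parent, and leaving out each library. Of 55 listed keratins, 22 were not matched by symbol and are not analysed here. Some sequences are not reported here.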

Additional observations from a re-analysis of the deposited data

How the results depend on the processing

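The averaged shARID1A to shNC log2 fold change kept its direction under every alternative run: without single libraries it was -0.77 to -0.73 for KRT8, -0.57 to -0.51 for KRT18 and -4.53 to -2.44 for KRT15. No treatment effect of the 3 genes was called where an alternative gave an adjusted p. DESeq2 gave none for KRT15 in 6 of 9 contrasts. However, values near 0 changed sign when single libraries were left out. For KRT8 the ranges were -0.019 to 0.037 (E2 against DMSO), -0.035 to 0.030 (E2 with fulvestrant against E2) and -0.026 to 0.038 (E2 with fulvestrant against DMSO) averaged over arms. Its arm differences were -0.036 to 0.086 for E2 and -0.106 to 0.037 for fulvestrant. Within arms, KRT8 ranged over -0.025 to 0.072 (shARID1A) and -0.061 to 0.056 (shNC) for E2, and -0.075 to 0.023 (shARID1A) and -0.054 to 0.079 (shNC) for fulvestrant. KRT18 under E2 ranged over -0.0076 to 0.080 averaged, -0.12 to 0.051 for the arm difference, -0.013 to 0.061 in shARID1A and -0.033 to 0.14 in shNC. KRT18 for fulvestrant against E2 ranged over -0.13 to -0.037 in shARID1A, -0.18 to -0.11 in shNC and 0.010 to 0.11 for the arm difference. KRT15 ranged over 0.94 to 7.23 (E2, shARID1A), -3.02 to -0.31 (fulvestrant against E2, shARID1A), -0.48 to 0.60 (E2, shNC), -0.51 to 0.56 (fulvestrant against E2, shNC) and -0.50 to 3.11 (fulvestrant against DMSO, averaged). KRT9 ranged over -0.16 to 0.62 between arms, and other intermediate filaments called lower numbered 2 to 4. The call of KRT7 for fulvestrant against E2 was lost in 7 of 12 such fits (highest adjusted p = 0.464, edgeR).

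The count of all genes called for E2 against DMSO, averaged over arms, was 1, and 8 with no filter on low counts (0 to 4 without single libraries). For E2 with fulvestrant against E2 it was 11, against 256 with no filter, 245 by DESeq2 and 0 to 222 without single libraries. The fit with a replicate block gave 40 in that contrast and changed no call of KRT8, KRT18 or KRT15. The cause of these shifts was not tested. Deviations of same-numbered libraries correlated at -0.09 to 0.11 over 15 pairs of groups, with 1 above 0.1, and the labels give no shared source, so the numbers were not treated as pairs. Among shNC groups all r were positive (0.07 to 0.11), and replicate 1 was above replicate 2 for KRT8, KRT18 and KRT15 in all 3 shNC treatments. With counts of 0 to 90, the 95% intervals of KRT15 were the widest of the 3 genes.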
